A study of Homo sapiens with 18 samples.

Results

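The aldo-keto reductases examined here are 7 human genes, AKR1C1, AKR1C2, AKR1C3, AKR1C4, AKR1B1, AKR1B10 and AKR1A1, and every array probe that the platform's annotation assigns to them. The annotation holds 11 such probes for 5 of the 7 genes, among 47222 probes analysed: 6 for AKR1C2, 2 for AKR1C4 and 1 each for AKR1C1, AKR1C3 and AKR1B10. It lists none for AKR1B1 and AKR1A1, which are therefore not analysed here. The family was chosen by the log2 differences of AKR1C probes between withaferin A and DMSO in IMR-32, which were known to be large. The values of that contrast are given below as a description with no test, as are those of the other contrasts that contain its arrays.

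The arrays measured RNA of 2 neuroblastoma cell lines, IMR-32, which is known to carry an amplified MYCN gene, and SK-N-SH, which is known to lack it. Cells of each line were exposed for 24 h to withaferin A (WA) or withanone (WN), each compound at 1 µM, or to the solvent DMSO, with 3 biological replicates in each of the 6 groups per the labels. Both compounds are plant steroids of the withanolide class, lactones made by Withania somnifera. In withanone the epoxide and hydroxyl groups sit at other carbons of the skeleton than in withaferin A. All groups were grown in the same serum-containing medium, each line is a single established line, and the series as a whole deals with ferroptosis, the iron-dependent form of cell death.

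Aldo-keto reductases are soluble enzymes that use NADPH to reduce aldehydes and ketones to alcohols. The AKR1C enzymes act on steroids and prostaglandins as well as on reactive carbonyls such as products of lipid peroxidation, while the AKR1B enzymes reduce glucose, retinal and other aldehydes. AKR1C1, AKR1C2, AKR1C3 and AKR1B10 are known in human cells as targets of NRF2 (gene NFE2L2), a transcription factor that the adaptor KEAP1 marks for degradation until electrophiles modify it. AKR1C4 is best known as a liver enzyme of bile acid and steroid metabolism.

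The 4 AKR1C genes form a cluster on chromosome 10 in the order AKR1C1, AKR1C2, AKR1C3 and AKR1C4. Another coding gene of the group, AKR1C8, lies between AKR1C3 and AKR1C4 and has no probe in the annotation, and AKR1E2 lies beyond a pseudogene on the AKR1C1 side. Their promoters are shown because the 3 genes with a detected probe were high in the same samples. Each window runs from 250 bases before to 50 bases after the start site in RefSeq on GRCh38.p14. AKR1C1 is chr10:4963165-4963464 on the plus strand, AKR1C2 is chr10:5003808-5004107 on the minus strand, AKR1C3 is chr10:5048531-5048830 on the plus strand and AKR1C4 is chr10:5196587-5196886 on the plus strand. Capitals mark matches to the CCAAT box (CCAAT) and the TATA box (TATAAA) on either strand, and a match on the opposite strand reads as the reverse complement.
AKR1C1: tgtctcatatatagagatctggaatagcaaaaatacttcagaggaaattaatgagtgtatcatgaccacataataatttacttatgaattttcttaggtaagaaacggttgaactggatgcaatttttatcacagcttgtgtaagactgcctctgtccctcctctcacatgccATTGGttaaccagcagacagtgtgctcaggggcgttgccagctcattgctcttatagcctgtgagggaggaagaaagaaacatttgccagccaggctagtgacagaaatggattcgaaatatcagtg
AKR1C2: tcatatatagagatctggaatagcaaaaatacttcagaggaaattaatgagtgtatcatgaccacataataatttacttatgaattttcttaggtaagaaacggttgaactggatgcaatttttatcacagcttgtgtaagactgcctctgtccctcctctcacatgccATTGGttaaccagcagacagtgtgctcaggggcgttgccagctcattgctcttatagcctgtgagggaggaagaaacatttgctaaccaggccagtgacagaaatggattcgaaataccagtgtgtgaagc
AKR1C3: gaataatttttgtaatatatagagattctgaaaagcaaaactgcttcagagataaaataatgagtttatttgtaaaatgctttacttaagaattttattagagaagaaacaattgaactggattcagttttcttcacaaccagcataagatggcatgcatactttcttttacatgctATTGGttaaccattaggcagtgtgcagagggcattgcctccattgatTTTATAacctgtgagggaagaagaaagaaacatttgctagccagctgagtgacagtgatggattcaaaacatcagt
AKR1C4: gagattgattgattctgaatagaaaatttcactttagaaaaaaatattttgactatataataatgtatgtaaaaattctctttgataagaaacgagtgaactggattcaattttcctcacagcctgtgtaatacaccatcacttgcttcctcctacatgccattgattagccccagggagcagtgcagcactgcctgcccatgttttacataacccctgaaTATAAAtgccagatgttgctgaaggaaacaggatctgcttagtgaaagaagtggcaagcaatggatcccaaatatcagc
The windows of AKR1C1 and AKR1C2 were identical at 288 of 296 aligned positions (97.3%), whereas AKR1C4 matched the other 3 printed windows at 64.9% to 65.8% of positions. AKR1C1, AKR1C2 and AKR1C3 each held 1 CCAAT match on the opposite strand, at -77, -81 and -73 from the start, and AKR1C4 held none; of 35116 promoter windows of this length 34.6% hold one. AKR1C4 held TATAAA at -29 and AKR1C3 held it on the opposite strand at -26, against 11.5% of all windows. RefSeq lists another start of AKR1C3, with the window chr10:5094164-5094463. The printed AKR1C3 window is merely the one at the lower coordinate, and which start these cells use was not analysed. The other window matched the printed one at 73.3% of positions and held a CCAAT match at -86 on the opposite strand and no TATAAA. The core of the antioxidant response element, searched as TGACNNNGC on both strands, had no match in these 5 windows and occurs in 13.3% of all windows. The AP-1 motif TGANTCA had no match either and occurs in 7.71%.

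**Figure D1:**
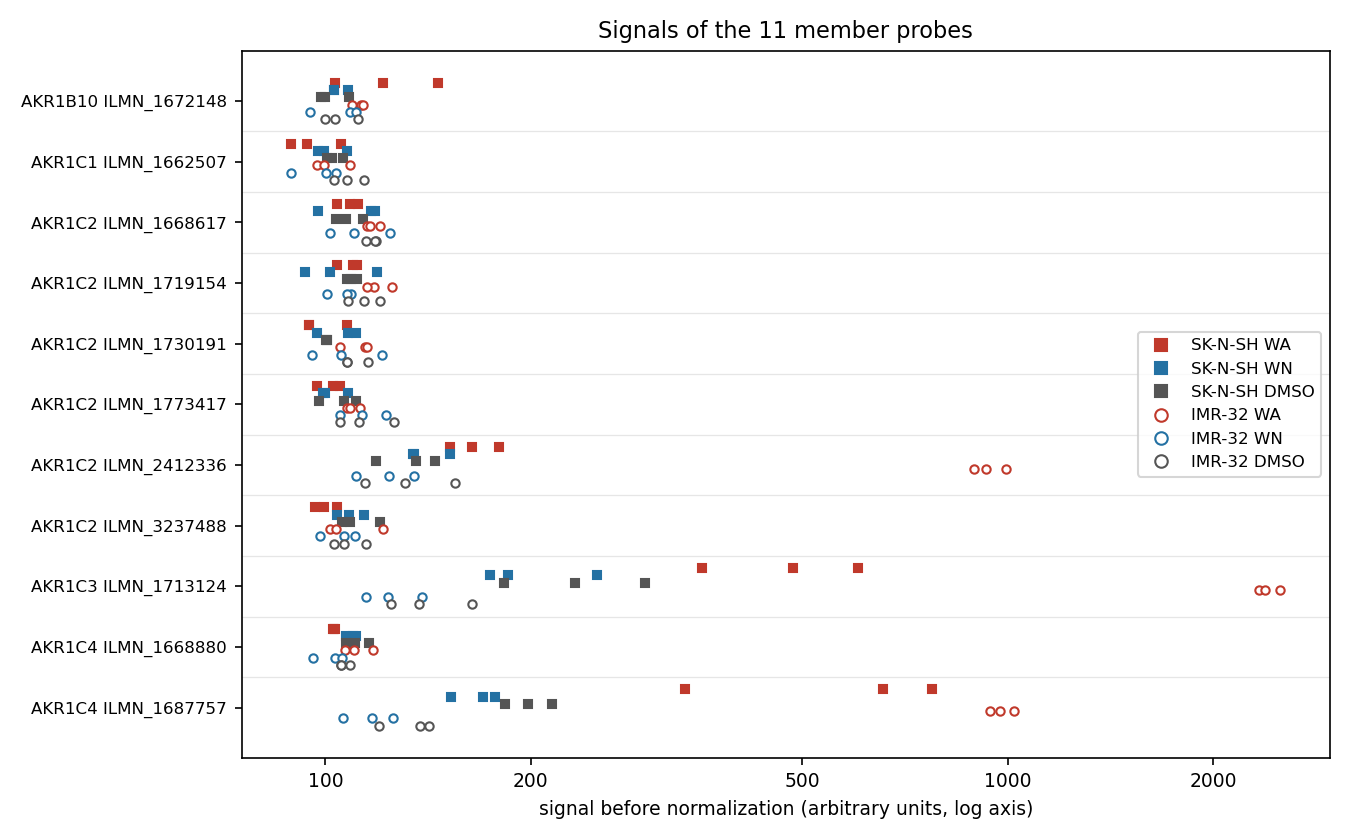
Signals of the 11 probes of the family on the 18 arrays, before normalization, on a log axis in arbitrary units. Each row is a probe and each point an array; filled squares are SK-N-SH, open circles are IMR-32, and colour gives the compound. Points beyond 250 belong to 3 probes, those of AKR1C2 (ILMN_2412336), AKR1C3 and AKR1C4 (ILMN_1687757), while 7 probes stay between 89.1 and 126.

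Most probes of the family never rose above the array background. A probe counted as detected on an array at a detection p under 0.01, and 7 of the 11 probes were detected on 0 of 18 arrays, with signals of 89.1 to 126 and detection p-values of 0.0196 or more. These were the AKR1C1 probe, 5 of the 6 AKR1C2 probes and 1 of the 2 AKR1C4 probes (ILMN_1668880). The detection p-values of the withanone arrays were rederived from the signals, and with the deposited ones 2 of these AKR1C2 probes, ILMN_1668617 and ILMN_1719154, would count as detected on 6 arrays each. The AKR1B10 probe (ILMN_1672148) was detected on 2 arrays. The remaining 3 probes were detected on at least 3 arrays and entered the tests with 23317 others, 23320 in all: ILMN_2412336 for AKR1C2, ILMN_1713124 for AKR1C3 and ILMN_1687757 for AKR1C4. The IMR-32 arrays with withaferin A alone were enough to pass that filter, so the detected probes do not stand for the whole family. For AKR1C2 and AKR1C4 the probes of 1 gene disagreed, since 1 probe of each gave high signals where the others stayed at background. The paralogs are nearly identical in places, and whether a probe also binds a paralog's RNA was not analysed here.

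In IMR-32, AKR1C3, which forms testosterone and prostaglandin F, had the largest difference of the family. Its signal was 2508, 2334 and 2385 in the 3 cultures with withaferin A, 115, 139 and 123 with withanone, and 137, 164 and 125 with DMSO. The withaferin A arrays stood far above all others, and the withanone and DMSO arrays overlapped. After background correction and normalization the mean log2 value was 10.97 ± 0.14 with withaferin A, 5.36 ± 0.54 with withanone and 5.42 ± 0.49 with DMSO (SD, n = 3 each). The difference of withaferin A over DMSO was 5.55 ± 0.37 (SE), or 46.9-fold with a 95% interval of 27.2 to 81.0.

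AKR1C4 (ILMN_1687757) gave 1021, 973 and 941 in IMR-32 with withaferin A, 106, 117 and 125 with withanone, and 138, 142 and 120 with DMSO. None of the withanone arrays and 2 of the 3 DMSO arrays detected it, so its level there was at the edge of what the arrays measure. Its mean log2 value was 9.59 ± 0.19 with withaferin A, 4.80 ± 0.10 with withanone and 5.19 ± 0.44 with DMSO, which made a difference of 4.40 ± 0.28 for withaferin A over DMSO (21.1-fold).

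AKR1C2 inactivates dihydrotestosterone. In IMR-32 the signals of its single detected probe were 994, 929 and 891 with withaferin A, 111, 135 and 124 with withanone, and 131, 155 and 114 with DMSO. Again only the withaferin A arrays were high, and withanone and DMSO overlapped. The log2 means were 9.51 ± 0.22, 5.21 ± 0.47 and 5.13 ± 0.60 in the same order, and withaferin A over DMSO came to 4.38 ± 0.31 (20.8-fold). The DMSO level was detected on 2 of 3 arrays for each of these 3 probes, and the withanone level of AKR1C2 on 1 and of AKR1C3 on 2.

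Among 12975 genes, each represented by its brightest detected probe, AKR1C3, AKR1C4 and AKR1C2 ranked 2, 3 and 4 by their rise with withaferin A in IMR-32, behind HMOX1, the heme-degrading enzyme heme oxygenase. All 3 detected probes were at least 2-fold higher, as were 1.82% of the 23320 probes, and their arrays did not overlap with DMSO, as held for 18% of probes in that direction. These shares are given only as the setting of the genes, since this contrast chose them. The size of the change depends on the background correction: in the deposited series matrix the differences were 3.93 for AKR1C3, 2.72 for AKR1C4 and 2.67 for AKR1C2 on the log2 scale, with ranks of 2, 5 and 6.

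**Figure D2:**
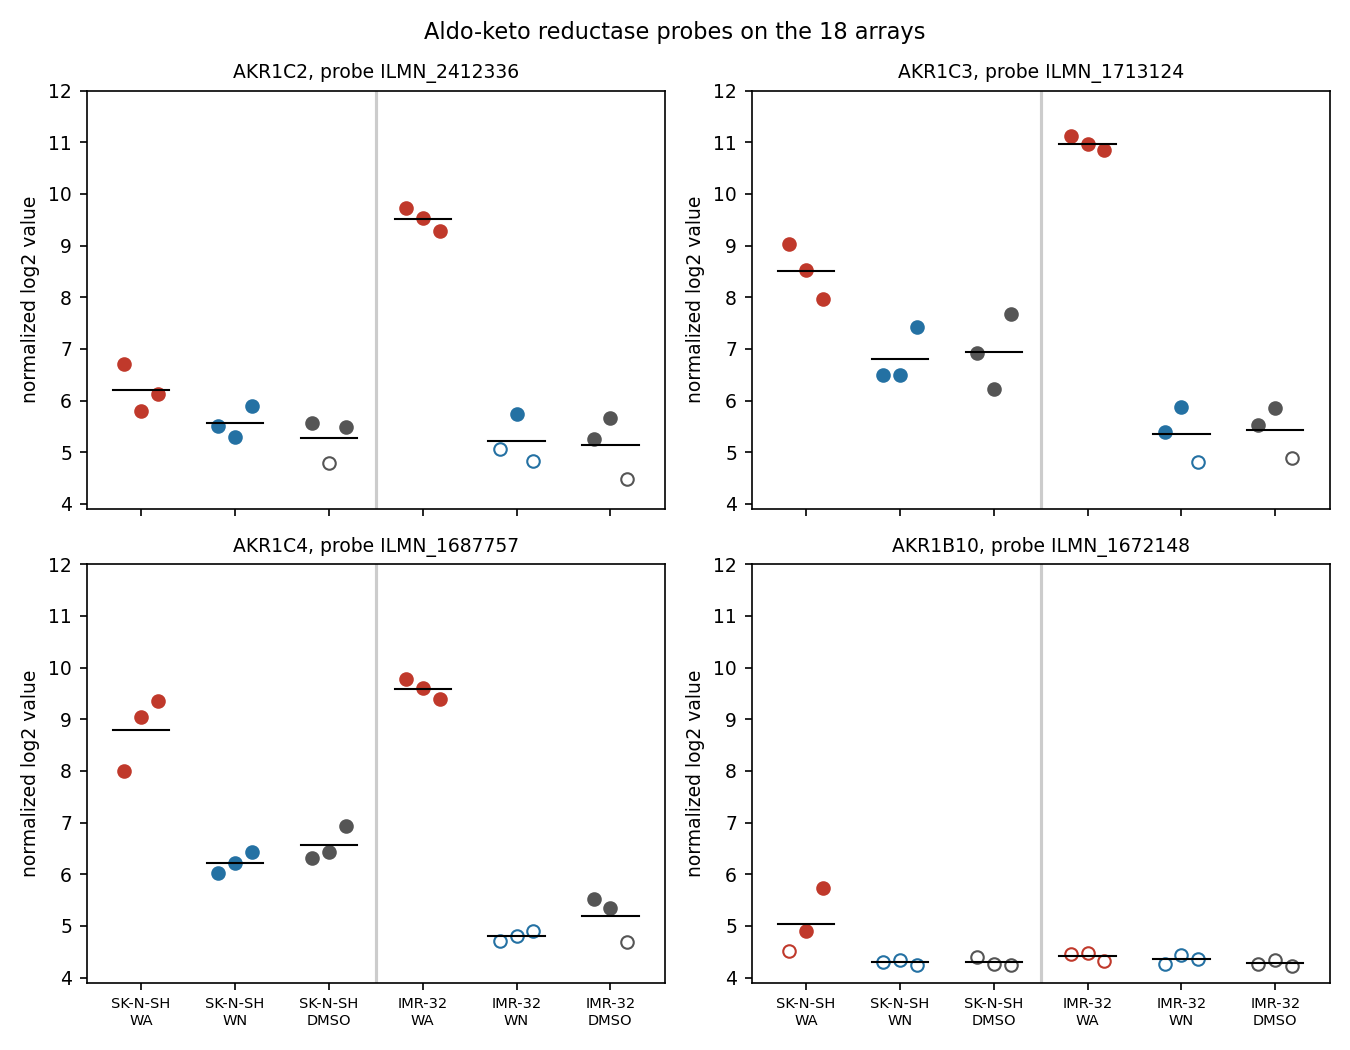
Normalized log2 values of the AKR1C2, AKR1C3, AKR1C4 and AKR1B10 probes on the 18 arrays, with 3 arrays in each group. Filled points were detected, open points were not, and bars are group means; the left 3 groups are SK-N-SH and the right 3 IMR-32. The 3 AKR1C probes are highest in IMR-32 with withaferin A, and AKR1B10 is detected on 2 arrays, both of SK-N-SH with withaferin A.

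In SK-N-SH the AKR1C probes also rose with withaferin A, by less, and AKR1C4 came first. Its signal was 337, 657 and 774 with withaferin A, 153, 170 and 177 with withanone, and 184, 198 and 215 with DMSO. All withaferin A arrays lay above all others, while withanone and DMSO overlapped on the normalized scale. The mean log2 value was 8.80 ± 0.71 with withaferin A, 6.22 ± 0.20 with withanone and 6.56 ± 0.33 with DMSO. This AKR1C4 probe (ILMN_1687757) rose by 2.23 ± 0.28 over DMSO, or 4.71-fold with a 95% interval of 3.11 to 7.12 (adjusted p = 3.85e-05, limma with Benjamini-Hochberg adjustment over 23320 probes). The other AKR1C4 probe, ILMN_1668880, was not detected on any array and differed by -0.14. Whether ILMN_1687757 also binds RNA of a paralog was not analysed.

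AKR1C3 gave signals of 603, 484 and 356 with withaferin A in SK-N-SH, 174, 185 and 250 with withanone, and 232, 182 and 293 with DMSO. The lowest withaferin A array was above the highest of the other groups, though the spread was wide. Its log2 means were 8.50 ± 0.54, 6.80 ± 0.54 and 6.94 ± 0.72 in that order, and the rise over DMSO was 1.56 ± 0.37, or 2.95-fold with an interval of 1.71 to 5.10 (adjusted p = 0.0052).

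AKR1C2 moved least. Its signal in SK-N-SH was 180, 152 and 164 with withaferin A, 135, 135 and 152 with withanone, and 145, 119 and 136 with DMSO, so that withaferin A exceeded DMSO on every array but touched the withanone range. The log2 means were 6.21 ± 0.46 with withaferin A, 5.56 ± 0.30 with withanone and 5.28 ± 0.43 with DMSO. The difference over DMSO was 0.93 ± 0.31, 1.90-fold, with an adjusted p of 0.0362. This call did not hold in 6 of 28 alternatives. It was lost without replicate 1 of withaferin A (0.68, adjusted p = 0.132), without replicate 3 of withaferin A (0.97, adjusted p = 0.0679) and without replicate 2 of DMSO (0.68, adjusted p = 0.165). It was also lost in the series matrix (0.34, adjusted p = 0.0538), without background correction (0.35, adjusted p = 0.0535) and without the detection filter (0.93, adjusted p = 0.0734), and over all alternatives the adjusted p ran from 0.00336 to 0.165.

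With withaferin A in SK-N-SH, 12.8% of all probes were called higher and 12.8% lower. The 3 detected AKR1C probes were all called higher, with arrays that did not overlap with DMSO (16.7% of all probes), at ranks 52 (AKR1C4), 152 (AKR1C3) and 658 (AKR1C2) of 12975 genes. In the series matrix AKR1C4 rose by 1.52 (adjusted p = 4.1e-05) and AKR1C3 by 1.05 (adjusted p = 0.0017), and the calls of these 2 genes held in 28 of 28 alternatives each. AKR1C2 was not called there and ranked 2035.

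The cultures with withaferin A in SK-N-SH did not line up across the genes. Over the DMSO mean, AKR1C3 was higher by 2.09, 1.58 and 1.02 on the log2 scale in replicates 1, 2 and 3, and AKR1C4 by 1.44, 2.48 and 2.78. AKR1C2 was higher by 1.43, 0.52 and 0.84. Against the DMSO array of the same number the order changed, with 2.11, 2.29 and 0.29 for AKR1C3, 1.68, 2.61 and 2.41 for AKR1C4, and 1.14, 1.01 and 0.64 for AKR1C2. Both ways, replicate 1 had the smallest AKR1C4 and the largest AKR1C2 difference. The 3 IMR-32 cultures with withaferin A ran from 5.42 to 5.70 over the DMSO mean for AKR1C3, from 4.20 to 4.58 for AKR1C4 and from 4.15 to 4.59 for AKR1C2. Against the same-numbered DMSO arrays they ran from 5.11 to 5.95, from 4.24 to 4.70 and from 3.87 to 4.80.

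AKR1B10, which reduces retinal and other aldehydes, left the background in SK-N-SH alone. Its signal was 103, 121.5 and 146 with withaferin A, 103, 108 and 103 with withanone, and 108, 100 and 98.7 with DMSO. Only 2 withaferin A arrays detected it, and the first replicate overlapped with the other groups before normalization. The mean normalized values were 5.04 ± 0.62 with withaferin A and 4.29 ± 0.08 with DMSO, which was not well above background on any array. The DMSO values were therefore raised to the detection floor, the lowest normalized value of a detected probe on each array. This gave a bound of at least 1.06-fold higher with withaferin A. A limma fit of all probes without the filter gave this comparison an adjusted p of 0.0213, with 1 side of it at background. In IMR-32 its signals stayed at 109 to 114 with withaferin A, against 99.8 to 112 with DMSO, and no array detected it.

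AKR1C1, which inactivates progesterone, showed no measurable level. Its probe and the other undetected AKR1C2 and AKR1C4 probes differed between withaferin A and DMSO by -0.22 to 0.09 in SK-N-SH and by -0.19 to 0.18 in IMR-32 on the log2 scale. In a limma fit without the detection filter, 0 of these 7 probes passed in SK-N-SH and 0 had an unadjusted p under 0.05, where AKR1B10 was the 1 call among the 8 unfiltered family probes. A signal at background limits what these probes can show and does not say that the transcripts are absent.

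**Figure D3:**
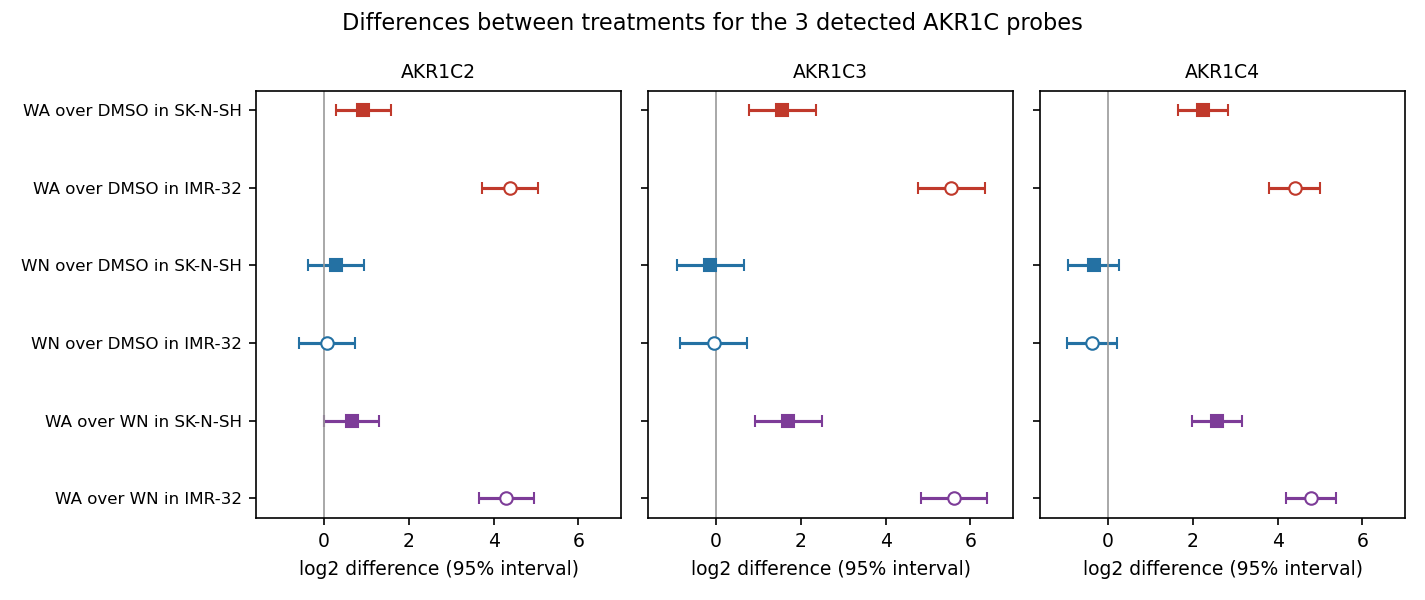
Log2 differences with 95% intervals for the 3 detected AKR1C probes, in SK-N-SH (filled squares) and IMR-32 (open circles), for withaferin A over DMSO, withanone over DMSO and withaferin A over withanone. AKR1C4 was not detected in IMR-32 with withanone, so that its values against those arrays rest on a background signal. The 6 withanone intervals include 0, and those of withaferin A over DMSO lie above it.

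Withanone gave no called change in the 3 detected AKR1C probes of SK-N-SH, of which 0 had an unadjusted p under 0.05 in limma. The differences over DMSO there were -0.14 for AKR1C3 (95% interval -0.93 to 0.65, adjusted p = 0.916), -0.34 for AKR1C4 (-0.94 to 0.26, adjusted p = 0.632) and 0.28 for AKR1C2 (-0.37 to 0.94, adjusted p = 0.743), where 1.17% of probes were called in either direction. In IMR-32 the comparison uses the DMSO arrays of the contrast that chose the genes and is described only. Its differences were -0.06 for AKR1C3 (-0.85 to 0.73) and 0.08 for AKR1C2 (-0.58 to 0.73). AKR1C4 was not well above background on any IMR-32 array with withanone. With those values raised to the detection floor, its mean was 1.02-fold below that with DMSO, where 2 of 3 arrays detected it. The arrays overlapped, and the interval of the log2 difference, -0.98 to 0.21, included 0. The intervals leave room for changes of up to about 1 log2 unit in either direction. As a description, the withanone effect in SK-N-SH minus that in IMR-32 was -0.08 for AKR1C3 and 0.21 for AKR1C2.

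The 2 withanolides were set against each other at the same dose and time, as 1 pair in each line. In SK-N-SH withaferin A exceeded withanone by 2.57 ± 0.28 for AKR1C4 (5.95-fold, 95% interval 3.94 to 9.00, adjusted p = 7.02e-06) and by 1.70 ± 0.37 for AKR1C3 (3.25-fold, 1.89 to 5.61, adjusted p = 0.00226). For AKR1C2 the difference of 0.65 missed the threshold, with an interval of -0.01 to 1.30 and an adjusted p of 0.128. With same-numbered arrays as a block it passed (adjusted p = 0.0229). The deviations of those SK-N-SH arrays correlated at r of 0.208, 0.0492 and 0.379, so whether the numbers pair these groups is unclear. Without the block 2 of the 3 detected probes were called higher, against 16.3% of all probes. In IMR-32, where the difference is described only, AKR1C3 was 49.0-fold and AKR1C2 19.7-fold higher with withaferin A than with withanone. AKR1C4 was at least 21.5-fold higher on this scale, a bound because no withanone array detected it. These sizes depend on the background correction, and in the series matrix the log2 differences were 3.94 for AKR1C3, 2.64 for AKR1C2 and 2.83 for AKR1C4. All 3 were past 2-fold, as were 2.84% of all probes in that direction.

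The starting levels of the lines are described only, since the IMR-32 DMSO arrays are those of the contrast that chose the genes. With DMSO, AKR1C3 averaged 6.94 in SK-N-SH and 5.42 in IMR-32 on the log2 scale, a difference of 1.52 ± 0.37 (2.87-fold). AKR1C4 averaged 6.56 in SK-N-SH and 5.19 in IMR-32, a difference of 1.38 ± 0.28 (2.59-fold). The arrays of the lines did not overlap for these 2 genes, as held for 26.6% of all probes in that direction, and 11% of all probes were at least 2-fold higher in SK-N-SH. For AKR1C2 the difference was 0.14 (-0.51 to 0.80). In the series matrix the differences were 0.68 for AKR1C3, 0.53 for AKR1C4 and 0.04 for AKR1C2, all under 2-fold.

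Ordered by its mean level, AKR1C3 was highest in IMR-32 with withaferin A, then in SK-N-SH with withaferin A, with DMSO and with withanone, and lowest in IMR-32 with DMSO and with withanone. AKR1C4 had the same order. Within each line withanone and DMSO did not differ beyond their spread for either gene. For AKR1C4 the withaferin A arrays of the lines almost met, with 8.00, 9.04 and 9.35 in SK-N-SH and 9.77, 9.61 and 9.39 in IMR-32. For AKR1C2 the 5 groups below IMR-32 with withaferin A formed a run of means between 6.21 and 5.13 in which each overlapped with the next.

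The response to withaferin A was smaller in SK-N-SH than in IMR-32 for the 3 AKR1C probes. As a description, the SK-N-SH effect minus the IMR-32 effect was -3.99 ± 0.53 for AKR1C3, -3.45 ± 0.44 for AKR1C2 and -2.17 ± 0.40 for AKR1C4 on the log2 scale, all past 2-fold lower, as were 3.9% of probes. AKR1C3 had the lowest value of 12975 genes, and AKR1C2 and AKR1C4 ranked 4 and 48 from the lowest. In the series matrix the values were smaller, -2.87 for AKR1C3, -2.33 for AKR1C2 and -1.20 for AKR1C4, at ranks 1, 8 and 143.

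**Figure D4:**
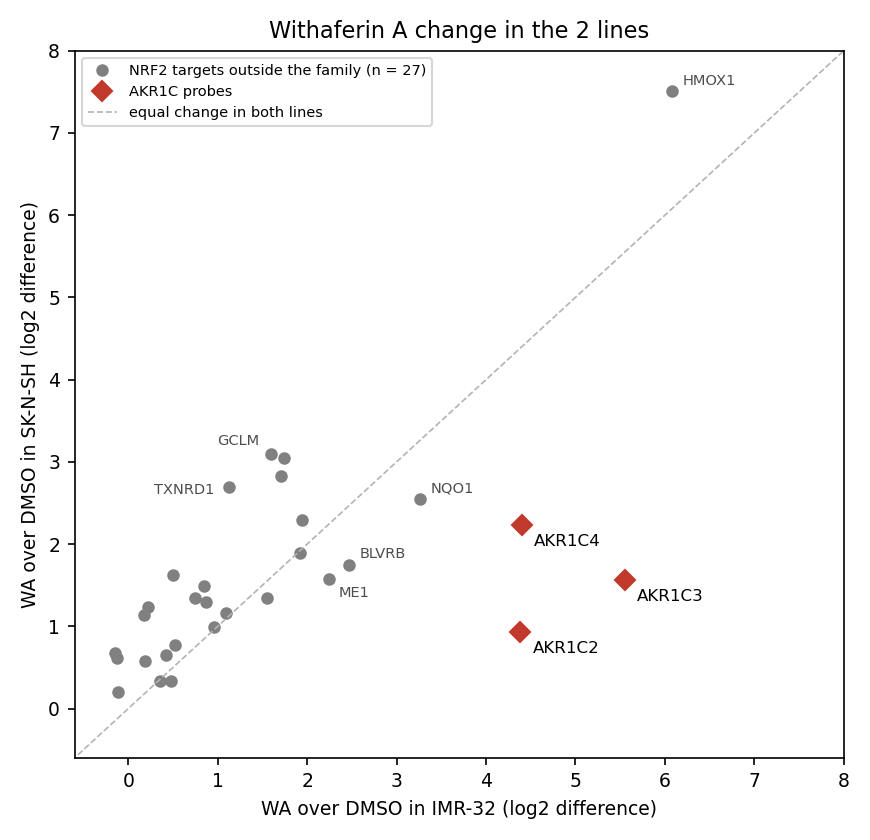
Log2 difference of withaferin A over DMSO in SK-N-SH (vertical axis) against IMR-32 (horizontal axis), for 27 NRF2 targets outside the family (grey circles) and the 3 detected AKR1C probes (red diamonds). The dashed line marks equal change. AKR1C2, AKR1C3 and AKR1C4 lie far below it, while 20 of the 27 other targets lie above.

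Most other targets of NRF2 lay on the other side of that comparison between the lines. Of 34 listed targets outside the family 27 were measured. With withaferin A in SK-N-SH 24 of them rose and 0 fell, with a median of 1.35 against 0.02 over all genes, of which 1986 rose and 1880 fell among 12975. The largest rises were those of HMOX1 (7.51 ± 0.32, adjusted p = 3.56e-10), the glutathione synthesis subunit GCLM (3.10 ± 0.25, adjusted p = 6.28e-07), the sulfiredoxin SRXN1 (3.05 ± 0.21, adjusted p = 1.25e-07) and the cystine transporter SLC7A11 (2.83 ± 0.32, adjusted p = 1.25e-05). In IMR-32, described only, 12 of the 27 were at least 2-fold higher and 0 lower, against 295 higher and 240 lower of all 12975 genes. The median was 0.87 against 0.02 over all genes, with the largest differences for HMOX1 (6.08), the quinone reductase NQO1 (3.26), the biliverdin reductase BLVRB (2.47) and the malic enzyme ME1 (2.24). The difference of SK-N-SH minus IMR-32 was above 0 for 20 of the 27, with a median of 0.40 against 0 over all genes, and the lowest was BLVRB at -0.73. With withanone limma called 0 of the 27 in either line (5 in SK-N-SH and 4 in IMR-32 at an unadjusted p under 0.05), with medians of -0.02 in SK-N-SH and 0.06 in IMR-32. Few of all 12975 genes were called either, 91 higher and 74 lower in SK-N-SH and 280 and 263 in IMR-32. Of all 23320 probes, 3564 in SK-N-SH and 4685 in IMR-32 had an unadjusted p under 0.05 in limma.

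The genes that control NRF2 followed the same direction in SK-N-SH. Of 8 listed regulators 6 were measured, and with withaferin A 5 rose and 0 fell there. MAFF (1.46 ± 0.30, adjusted p = 0.00185) and MAFG (1.35 ± 0.14, adjusted p = 5.17e-06), small MAF partners of NRF2, rose most, followed by NFE2L2 itself (1.22 ± 0.21, adjusted p = 0.000511) and KEAP1 (0.73 ± 0.14, adjusted p = 0.00102). In IMR-32 the same genes differed by 0.46, 0.75, 0.23 and 0.53. MAFG is also counted among the NRF2 targets above.

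No measured aldo-keto reductase outside the 7 genes was called higher with withaferin A in SK-N-SH. Of 9 listed, 6 were measured, and with withaferin A in SK-N-SH limma called 0 higher (0 at an unadjusted p under 0.05) and 2 lower. These were AKR7A2 (-0.78 ± 0.16, adjusted p = 0.00214) and AKR7A3 (-0.77 ± 0.12, adjusted p = 0.000253), both aflatoxin aldehyde reductases. In IMR-32 they differed by -0.67 and -0.48, and none of the 6 was 2-fold apart. AKR1E2, next to the AKR1C cluster on chromosome 10, differed by -0.06 ± 0.17 in SK-N-SH (adjusted p = 0.852) and by 0.28 ± 0.17 in IMR-32. With DMSO, 4 of the 6 were called higher in SK-N-SH than in IMR-32 and 0 lower, with a median of 0.65. Of all 12975 genes 3425 were higher and 3088 lower in that comparison. With withaferin A over DMSO in SK-N-SH, 1986 of them rose and 1880 fell.

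Other carbonyl and aldehyde enzymes split evenly in SK-N-SH with withaferin A: of 27 listed, 23 were measured, 7 rose and 7 fell. The list shares NQO1, CBR1 and CBR3 with the NRF2 targets, and all 3 rose. NQO1 (2.55 ± 0.24, adjusted p = 1.91e-06) and PTGR1 (2.27 ± 0.29, adjusted p = 4.82e-05), which reduces alkenals and prostaglandins, rose most. ALDH1A3, a retinal dehydrogenase, fell (-1.56 ± 0.37, adjusted p = 0.00534). Of 29 genes of steroid and prostaglandin metabolism 17 were measured, and 4 rose and 3 fell, led by HSD17B1, which forms estradiol (1.07 ± 0.20, adjusted p = 0.000901). Both lists had medians close to that of all genes, -0.10 and 0.02. Of all 12975 genes 1986 rose and 1880 fell in this comparison.

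Over the 18 arrays, the genes whose log2 values most resembled those of AKR1C4 by Pearson's r were NQO2 (0.962), ADCK1 (0.939) and TMEM114 (0.935), among 12966 genes outside the aldo-keto reductases. For AKR1C3 they were PTPRN (0.923), NQO2 (0.920) and NEU1 (0.919), and for AKR1C2 TMT1B (0.925), ADAM23 (0.924) and GPX3 (0.906). These values describe arrays that fall into 6 groups of 3 and carry no test. TMT1B averaged 6.91 ± 0.49 in IMR-32 with withaferin A and 4.46 to 4.86 in the other groups, near background. Its r therefore rests on the arrays of the contrast that chose the genes. NQO2, a quinone reductase, averaged 9.24 ± 0.24 with withaferin A, 8.38 ± 0.16 with withanone and 8.18 ± 0.14 with DMSO in SK-N-SH, and 9.44 ± 0.32, 7.71 ± 0.24 and 7.57 ± 0.20 in IMR-32. GPX3, the plasma glutathione peroxidase, averaged 8.49 ± 0.15, 6.87 ± 0.17 and 7.18 ± 0.13 in SK-N-SH and 9.87 ± 0.22, 7.07 ± 0.07 and 7.26 ± 0.05 in IMR-32.

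Across the series, the arrays detected 17102 to 20781 probes each. The withanone arrays were dimmer, with a highest signal of 19100.5 to 21479.9 against 29825.6 to 37328.5 on the other 12. This split coincides with the compound in both lines. In comparisons with withanone an effect of the compound and a difference between the arrays therefore cannot be told apart. Neuroblast markers were present in every group, 9 to 11 of the 11 with a probe, while 0 of 2 Schwann cell markers and 1 of 3 immune markers (CD68) were detected on all arrays of a group. Of 5 hepatocyte markers, the cell type in which AKR1C4 is best known, ALB alone was detected on all 3 arrays in 5 of the 6 groups, and it rose with withaferin A in SK-N-SH (1.39 ± 0.22, adjusted p = 0.00028), as did CD68 (1.13 ± 0.20, adjusted p = 0.00057). Of the 11 neuroblast markers 7 fell and 0 rose with withaferin A in SK-N-SH, with a median of -1.32, whereas in IMR-32 2 were at least 2-fold lower and the median was 0.36. Of 8 mesenchymal markers, all measured, 6 were higher and 0 lower in SK-N-SH than in IMR-32 with DMSO (median 2.49), and their median difference of withaferin A over DMSO in SK-N-SH was -0.05. The part of these shifts in the AKR1C values was not tested, and in bulk RNA a change per cell and a change in the mix of cells cannot be told apart.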

How the data were processed

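Illumina HumanHT-12 v4 arrays carried RNA of 18 cultures, grouped by the labels. The deposited non-normalized table gives a bead intensity on a linear scale, left unnormalized by the authors, and a detection p-value, both named per the file headers. The deposited series matrix holds log2 values, quantile-normalized with limma per the submitters' processing notes (version not given in the sources used here). Its median was 6.87, its centring is unknown, and its columns correlated with their own arrays at r of 0.9954 or more.

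neqc (limma 3.58.1, R 4.3.3, offset 16) normalized 47222 probes, 2 others having missing values. Probes detected (p under 0.01) on at least 3 arrays were kept, 23320 in all. Detection p-values deposited for the 6 WN arrays departed from the signals there: 66.5% to 68.1% of probes lay within 0.02 of a running median over 101 probes, against at least 99.99% elsewhere. They were rederived from the signals after this was seen, which changes the arrays that detect AKR1C4 (ILMN_1687757) to 14, against 17 with the deposited values, and those that detect AKR1C2 at ILMN_1668617 and ILMN_1719154 to 0, against 6 each. A limma fit of all arrays had a mean for each group, 12 residual and 5.06 prior degrees of freedom, and p-values were adjusted by Benjamini-Hochberg over all kept probes, with 0.05 as the threshold. In simulated data of the same size with normal noise, 71% of 2-fold and 97% of 4-fold changes were recovered for WA over DMSO in SK-N-SH. Far fewer probes were changed there than were called in the data. The rates were not computed for the other comparisons or separately for probes near background. Genes were named from the platform's probe table (30107 of 47222 probes with 1 symbol, 8 with several, 17107 unnamed here) and represented by their brightest kept probe. Promoters come from RefSeq (GRCh38.p14), where all 4 AKR1C genes matched, and motifs were counted in Python 3.11.15 with Biopython 1.88; figures used matplotlib 3.10.9.

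The members, gene lists and comparisons were chosen with earlier results of these data known. Comparisons of the family that use the IMR-32 DMSO arrays were planned as tests where no IMR-32 WA array enters, and are given as descriptions. All probes of the 7 symbols are described, up to 4 changed genes per list, and the 3 genes most correlated with each detected AKR1C probe. Within a line, the deviations of same-numbered treated and DMSO arrays correlated at r of 0.103 to 0.594. The lower values leave unclear whether the numbers pair the arrays, and a replicate block was an alternative. This block changed no call against DMSO. The other alternatives were the series matrix, no background correction, median scaling, the deposited detection p-values, other detection filters, lines fitted alone, 1 probe per gene, each array left out and, added after seeing the data, the WN arrays left out. The number of arrays limits the precision.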

Additional observations from a re-analysis of the deposited data

How the results depend on the processing

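The counts of AKR1C probes past the threshold or past 2-fold stayed within 1.5 times of the reported count in 243 of 243 recomputations. With 3 probes, a count of 2 in place of 3 lies within that range, so this measure cannot register the loss of 1 call. Of single-probe values, 701 kept their side of the threshold or, in the untested WA contrasts, moved by less than the replicate SD. Some uncalled values among these changed sign. Another 21 values moved further, 6 lost the call, 1 gained it, and 0 called or 2-fold differences reversed. The 6 lost calls all concern AKR1C2 with WA over DMSO in SK-N-SH. The 21 moves concern the WA contrasts of IMR-32 and the difference between the lines, and 18 of them came from the series matrix or from leaving out the background correction. Leaving out 1 array at a time, the number of called probes ran from 2 to 3 for WA over DMSO in SK-N-SH, and the AKR1C4 and AKR1C3 rises there from 1.96 to 2.63 and from 1.21 to 1.93. Same-numbered WA and WN arrays had r of 0.0194 to 0.223 in IMR-32 and 0.0492 to 0.379 in SK-N-SH, so whether the numbers pair those groups is unclear. With the replicate block AKR1C2 passed for WA over WN in SK-N-SH (adjusted p = 0.0229), and the block changed no other call. The block is nested in the line and was not run for the DMSO comparison between lines. Leaving out the WN arrays, added after seeing the data, gave AKR1C2 an adjusted p of 0.0483 with WA in SK-N-SH. The WN differences, which are not called, changed sign under some alternative for 3 of 3 probes in IMR-32 and 1 of 3 in SK-N-SH. The difference of the WN effects between the lines did so for 3 of 3 probes, and the DMSO difference between the lines for 1 of 3.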
